A study of Oryza sativa Indica Group with 18 samples.

Results

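The comparison described here set 3 arrays of IR20 seedlings against 3 arrays of Dagad deshi seedlings, all taken after 3 h of drought. The samples were chosen by their labelled cultivar and time, and are 6 of the 18 arrays of the series. Both are indica rice cultivars. The series contrasts a drought tolerant with a drought susceptible cultivar, and its labels do not say which of them is which. Seedlings 7 days old were moved from hydroponic medium onto filter paper for 3 h or 6 h, and RNA of the whole seedling, roots and shoots together, was hybridized to Affymetrix rice arrays. There were 3 labelled biological replicates each of IR20 at 3 h, Dagad deshi at 3 h, IR20 at 6 h and Dagad deshi at 6 h. The unstressed arrays do not enter, so every difference below is one between stressed cultivars, and it includes whatever separated them before the stress.

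Plants that lose water accumulate abscisic acid (ABA). The hormone, bound to its receptors, holds back PP2C phosphatases and so frees SnRK2 kinases, called SAPK in rice, which activate transcription factors of the bZIP family. Dehydrins and other late embryogenesis abundant (LEA) proteins, which protect proteins and membranes in drying cells, are among the best known products of that pathway. Heat shock factors and small heat shock proteins also respond to drying, while genes of cell division, wall extension and chlorophyll synthesis mark growing and greening tissue.

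At 3 h of drought IR20 was lower than Dagad deshi in dehydrins, in most heat shock factors and in genes of diterpenoid phytoalexins, and higher in genes of chlorophyll synthesis, the cell cycle, kinesins, tubulins and cellulose synthases. Of 57258 probe sets tested with limma, 15556 differed at a Benjamini-Hochberg adjusted p under 0.05, which is 27.2% of them. IR20 was higher in 8294 (14.5%) and lower in 7262 (12.7%). A difference of at least 1 log2 unit, or 2-fold, was found in 4448 of the called probe sets (7.77% of all), 2300 higher and 2148 lower in IR20. Levels are given as log2 of the intensity plus 16, so 4 is the lowest value possible, and differences are IR20 minus Dagad deshi on that scale with their standard error (SE). The median difference over all probe sets was -0.001.

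Genes are read from 1 probe set each, and only 2445 genes had a name beyond their number in the RefSeq annotation. Among these, 61.9% were called at 3 h, 33.5% higher and 28.3% lower in IR20, and 17.1% differed by at least 1 log2 unit. The counts of the gene lists below are to be read against these shares. The median difference of the genes with a name was 0.009. A mean over all probe sets of a gene, where given, can include probe sets near the lowest value possible, which shrink it. The other probe sets of NAC048, GSA, HSFB2B, Cyp3, PSAG1, CM-LOX2 and P5CS2 averaged 4.31 to 4.6 over the drought arrays. A probe set of MCM9 averaged 4.37. An array cannot tell less transcript from a transcript whose sequence differs under the probes, and the cultivars may differ in sequence. Some genes are read from probe sets that can bind several related transcripts, marked _s_at or _x_at. These include SAPK9, GLU15, PT4, TIP3-1, KS1A, RAB21, LEA19, GAPC1 and HSP18.1. In whole seedlings, fewer cells of a type and less RNA per cell cannot be told apart either.

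The 6 arrays were alike in brightness, with medians of 7.14 to 7.3 and upper quartiles of 196 to 218 intensity units. The 3'/5' index, which averages over control transcripts how much brighter (log2) their 3' probe sets were than their 5' ones, was 2.79 to 2.89 in IR20, against 1.8 to 2.14 in Dagad deshi. The spike-in transcript dap averaged 12.83 ± 0.0451 in IR20 and 11.31 ± 0.301 in Dagad deshi (SD, n = 3 each), and lys and phe were 1.1 and 0.8 higher in IR20. None of these 4 measures overlapped between the cultivars, and each had the smallest p that 3 against 3 arrays can give, 0.1 (exact two-sided permutation test). The hybridization controls bioB and cre overlapped. Fitted with this index as a term, 14614 probe sets were called in place of 15556. With a mean for each group in the fit, that term was estimated from differences within groups alone. The widest were in IR20 at 6 h, whose arrays had an index of 3.19, 1.82 and 1.86. The fit therefore cannot show how much of the cultivar difference goes with the index. The part of the index and spike-in differences in the results was not tested.

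The gene with the largest difference among those with a name was ACO1, an oxidase that forms ethylene from its precursor. It read 13.1, 13.12 and 13.22 in IR20, against 6.26, 6.51 and 6.27 in Dagad deshi, a difference of 6.8 ± 0.112 (SE, limma adjusted p = 1.27e-10), or 111-fold. pinA followed with 14.52, 14.48 and 14.45 in IR20 and 8.47, 8.53 and 8.11 in Dagad deshi, a difference of 6.11 ± 0.127. Both differences held at 6 h, at 6.41 for ACO1 and 6.63 for pinA. PRX74, a secretory peroxidase, was 3.97 ± 0.0611 higher, and the aquaporin PIP2-7, a water channel, 3.78 ± 0.144. BURP2, of the plant BURP-domain family, was 4.64 ± 0.0821 higher in IR20, or 3.48 as the mean over all its probe sets. GLU6 and GLU15, endoglucanases that cut cell wall glucans, were 4.03 and 3.96 higher, and in Dagad deshi they stood at 4.64 to 4.71 and 4.53 to 4.67, close to the lowest value possible. OC-XII, a cystatin that inhibits cysteine proteinases, the nuclease BBD1, the germin-like protein GLP2 and the zinc transporter ZIP1 were 3.89, 3.65, 3.63 and 3.47 higher. The mean over all probe sets of GLP2 was 2.96.

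In the other direction GER3, a germin-like protein, read 4.62, 4.69 and 4.62 in IR20, against 9.7, 9.68 and 9.84 in Dagad deshi, a difference of -5.1 ± 0.082 (adjusted p = 1.14e-10). BURP10 read 4.33, 4.33 and 4.31 in IR20, against 8.91, 8.84 and 8.77 in Dagad deshi. For both genes the IR20 arrays lay next to the lowest value possible, and they did so at 6 h too. The beta-glucosidase BGLU9 differed by -4.91, the cellulose synthase-like CSLE1 by -4.13 and the kaurene oxidase family member CYP701A9 by -3.98. The laccases LAC24 and LAC19, copper oxidases that polymerize lignin units, were lower by 4.27 and 3.86. LPR1, a multicopper oxidase known in Arabidopsis for the root response to low phosphate, read 7.2, 7.26 and 7.03 in IR20 and 10.88, 10.63 and 10.69 in Dagad deshi, a difference of -3.57 ± 0.118. In all of these genes the arrays of the cultivars were well apart.

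**Figure D1:**
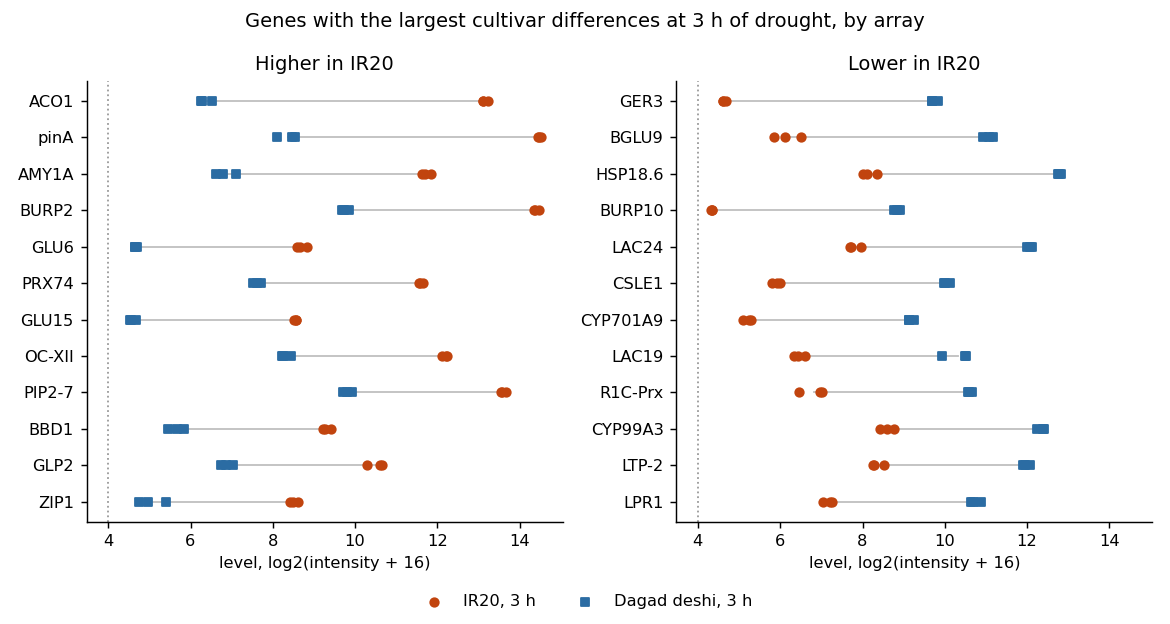
Levels at 3 h of drought, as log2(intensity + 16), of genes with a name. Shown are the 12 with the largest positive (left) and the 12 with the largest negative (right) difference, IR20 minus Dagad deshi. Genes known only by number are not shown. Circles are the 3 IR20 arrays, squares the 3 Dagad deshi arrays, grey lines join the means, and the dotted line marks the lowest value possible, 4; in no gene do the cultivars overlap.

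Genes known only by number included differences as large or larger. LOC4329797 read 13.91, 14.04 and 14.13 in IR20 and 6.16, 5.86 and 6.19 in Dagad deshi, a difference of 7.96 ± 0.184, and LOC4347027 was 7.49 ± 0.0917 higher in IR20. LOC4324307 and LOC4341070 were lower in IR20 by 6.03 and 5.72. Some probe sets read under an intensity of 16 in all 3 arrays of one cultivar and over 256 in all 3 arrays of the other. There were 59 such probe sets high in IR20, among them those of GLU6, GLU15 and ILL3, and 30 high in Dagad deshi, among them those of GER3, BURP10 and PP2C45. At 6 h the same pattern was met by 40 of the 59 and by 20 of the 30.

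The dehydrin and LEA list held 9 genes, of which 8 were lower in IR20 at 3 h and none was higher, with a median difference of -0.79. RAB16D, a dehydrin, read 11.52, 11.82 and 11.29 in IR20, against 14.19, 14.15 and 14.15 in Dagad deshi, a difference of -2.62 ± 0.105 (adjusted p = 3.37e-08), or 6.15-fold. rab25 read 11.88, 11.7 and 11.7 in IR20 and 13.2, 13.23 and 13.2 in Dagad deshi, a difference of -1.45 ± 0.0754. PM19L1, a membrane protein of drying embryos, was lower in IR20 by 1 ± 0.0672 and RAB16C by 0.84 ± 0.0495. The others that were lower, named here after their values were seen, were LEA19 at -0.79, Emp1 at -0.67, RAB21 at -0.59 and RAB16B at -0.47. In a fit on all 18 arrays RAB16C, RAB21 and RAB16B were not called (adjusted p = 0.197, 0.118 and 0.669), and the mean over all probe sets of RAB21 was -0.34. LIP9 differed by -0.11 ± 0.051 and was not called (adjusted p = 0.165). Several of these probe sets were bright in both cultivars, with RAB16B at 15.11 to 15.15 in IR20 and 15.55 to 15.64 in Dagad deshi.

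At 6 h the same list was not lower in IR20. RAB16D read 15, 14.97 and 14.96 in IR20, against 14.62, 14.62 and 14.58 in Dagad deshi, and rab25 read 14.23, 13.98 and 14.13 in IR20, against 13.78, 13.95 and 13.79 in Dagad deshi. IR20 was higher in 4 of the 9 genes at 6 h and lower in 1, with a median of 0.18. Of all genes with a name 44.4% were called at 6 h, 20.9% higher and 23.4% lower. The difference at 3 h minus the difference at 6 h was itself tested in the same limma fit, and 8 of the 9 genes passed, all toward a lower IR20 level at 3 h. Of all genes with a name 36.2% passed that test, 20.2% toward a higher and 15.9% toward a lower level. For RAB16D that change was -2.99 ± 0.148 (adjusted p = 1.74e-06).

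Around ABA itself the picture was mixed. ABA8OX1, the hydroxylase that breaks ABA down, was lower in IR20 by 1.06 ± 0.0745, and ZEP1, an epoxidase early in ABA synthesis, by 0.92 ± 0.0736. Among 10 SAPK kinases 2 were higher and 3 lower in IR20. SAPK1 read 10.3, 10.31 and 10.23 in IR20 and 11.89, 11.85 and 11.88 in Dagad deshi, a difference of -1.59 ± 0.0356. SAPK9 went the other way, with 11.5, 11.46 and 11.54 in IR20 and 9.64, 9.73 and 9.66 in Dagad deshi, and at 6 h it differed by -0.03 (adjusted p = 0.983). SAPK2, named after its values were seen, was 0.58 higher, and was not called in the fit on all 18 arrays (adjusted p = 0.0754). Of 56 PP2C phosphatases, listed by name and not by a part in ABA response, 19 were lower and 10 higher in IR20. The counts at 6 h were 26 lower and 8 higher. PP2C51, which in rice is known for a part in seed germination, was lower by 2.5 ± 0.0557 at 3 h and by 0.27 at 6 h, with a mean over all its probe sets of -1.5 at 3 h, and PP2C59 by 1.39 at 3 h. The bZIP list took numbered bZIP factors by name, whether or not they act in ABA response, and of its 8 genes 2 were higher and 4 lower.

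Heat shock factors, the regulators of chaperone genes, were lower in IR20 in 14 of 20 genes and higher in 2, with a median of -0.59. HSFB2B read 6.38, 6.33 and 6.24 in IR20, against 9.17, 8.97 and 9.16 in Dagad deshi, a difference of -2.78 ± 0.0976 (adjusted p = 1.38e-08). HSFA6B was at -2.21 ± 0.0483, HSFC2A at -1.24 and HSFA2E at -1.18. The 2 that were higher, HSFA3 at 0.87 and HSFC1A at 0.6, were picked out after their values were seen. HSFC1A was not called with the index as a term (adjusted p = 0.0882), and the mean over all probe sets of HSFB2B was -1.39. Small heat shock proteins, which keep unfolding proteins soluble, were lower in 9 of 19 genes and higher in 4. HSP18.6 read 8.35, 8.02 and 8.12 in IR20, against 12.76, 12.82 and 12.78 in Dagad deshi, a difference of -4.63 ± 0.113, or 24.7-fold. HSP17.4, HSP17.9A and HSP16.9A were lower in IR20 by 2.84, 2.65 and 2.15. HSP18.1, named after its values were seen, was 1.64 ± 0.139 higher. The probe set of HSP18.6 can bind several related transcripts, and the mean over all probe sets of that gene was -3.74. CLPB1, the chaperone that dissolves protein aggregates, read 6.13, 6.28 and 6.27 in IR20, against 8.89, 8.95 and 8.9 in Dagad deshi, and CLPB3 was lower by 1.6.

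**Figure D2:**
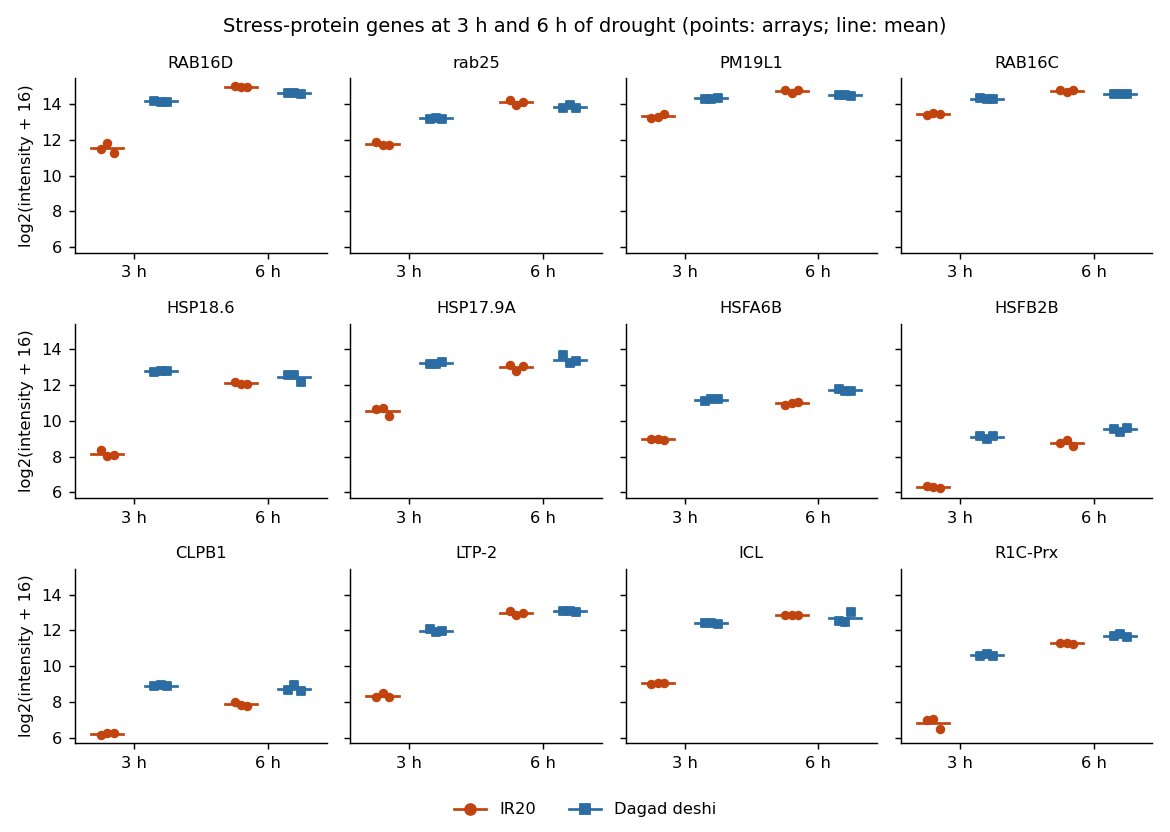
Levels of 12 genes as log2(intensity + 16) at 3 h and at 6 h of drought, IR20 as circles and Dagad deshi as squares, 1 point per array with the mean as a line. At 3 h IR20 lies below Dagad deshi in every panel, by 0.84 for RAB16C to 4.63 for HSP18.6, while at 6 h the cultivars lie within 0.89 of each other. The 12 genes were picked by hand and do not stand for their lists. HSP17.4 and HSP16.9A, not shown, differed by -1.83 and -1.15 at 6 h.

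HSP18.6 at 6 h read 12.2, 12.08 and 12.06 in IR20 and 12.57, 12.58 and 12.18 in Dagad deshi, and its difference of -0.33 was not called (adjusted p = 0.072). A few genes of other roles showed the same pattern. LTP-2, a lipid transfer protein, read 8.27, 8.53 and 8.26 in IR20 and 12.08, 11.9 and 11.96 in Dagad deshi at 3 h, and 13.07, 12.87 and 12.97 in IR20 and 13.09, 13.1 and 13.06 in Dagad deshi at 6 h. ICL, isocitrate lyase of the glyoxylate cycle, was lower in IR20 by 3.36 ± 0.112 at 3 h and differed by 0.18 at 6 h (adjusted p = 0.378). The peroxiredoxin R1C-Prx was lower by 3.79 at 3 h and by 0.43 at 6 h. HSFA6B, HSFB2B, HSP17.4 and HSP16.9A kept a difference at 6 h, of -0.71, -0.76, -1.83 and -1.15. Of the 20 heat shock factors 10 were lower in IR20 at 6 h and none was higher. Of the 19 small heat shock proteins 6 were lower and 2 higher.

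Among transcription factors of other families, 8 of 11 MYB factors were lower in IR20 and 1 was higher, with a median of -0.56. Their counts at 6 h were also 8 lower and 1 higher. MYB45 read 7.23, 7.38 and 7.29 in IR20 and 8.92, 8.79 and 8.77 in Dagad deshi. Of 8 NAC factors 5 were lower and 1 higher, with NAC45 lower by 1.63 ± 0.132 and NAC048 by 0.98 ± 0.0497, or by 0.33 as the mean over all its probe sets. The NAC counts at 6 h were 5 lower and none higher. DREB2B, of the family that binds dehydration-responsive elements, was at -1.18 and DREB2A at -0.7, while DREB1G was 1.17 higher. The 10 DREB and ERF factors split evenly, 2 higher and 2 lower. Hox22, a homeodomain-leucine zipper factor, was lower by 1.43 ± 0.045. Of 63 CCCH zinc finger and stress-associated (SAP) proteins 28 were lower and 11 higher. C3H60 read 8.46, 8.45 and 8.45 in IR20, against 11.56, 11.29 and 11.42 in Dagad deshi, and differed by -0.35 at 6 h. WRKY62 and WRKY51 were lower by 1.33 and 1.19. PCL1, which in Arabidopsis is part of the evening complex of the circadian clock, was 3.2 ± 0.0954 higher in IR20 at 3 h and 0.35 higher at 6 h.

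Genes of dividing cells stood higher in IR20. Of 60 cell cycle genes 35 were higher and 9 lower, with a median of 0.38. CYCB1-1, a mitotic cyclin, read 10.17, 10.27 and 10.09 in IR20, against 8.83, 8.69 and 8.76 in Dagad deshi, a difference of 1.41 ± 0.061 (adjusted p = 5.66e-08). MCM4 belongs to the helicase that opens DNA for replication, and was 1.4 ± 0.0912 higher. The remaining subunits of that helicase, named after their values were seen, were higher as well, MCM2 by 0.87, MCM6 by 0.84, MCM7 by 0.72, MCM3 by 0.67 and MCM5 by 0.65. At 6 h the differences of MCM2, MCM3, MCM5, MCM6 and MCM7 were 0.12, 0.04, -0.11, 0.19 and -0.2, none of them called. MCM9 was 2.3 ± 0.172 higher at 3 h and 1.87 higher at 6 h. Its mean over all probe sets of the gene was 1.41. The summed intensity of the list was 32590 to 34798 in IR20 and 25416 to 27002 in Dagad deshi.

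Kinesins, motor proteins of the mitotic spindle and of transport along microtubules, were higher in 24 of 34 genes and lower in 6, with a median of 0.57. KIN10A was 1.75 ± 0.13 higher and KIN12C 1.54 ± 0.0875. Of 10 tubulins 8 were higher and 1 was lower. TUB2 read 12.45, 12.37 and 12.37 in IR20 and 11.31, 11.26 and 11.37 in Dagad deshi, and TUB7 was lower in IR20 by 0.67 ± 0.162. With the index as a term TUB7 was no longer called (adjusted p = 0.209), nor in the fit on all 18 arrays (adjusted p = 0.461). Of 20 ribosomal protein genes 16 were higher and none was lower, with a median of 0.31, and RPL18 was 1.4 ± 0.0559 higher. Fitted with the index, 11 of the 20 were called higher. In the tubulins 7 of 10 were also higher at 6 h, with a median of 0.7, whereas 7 of the 20 ribosomal protein genes were.

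In the cell wall group, 19 of 28 cellulose synthase and related genes were higher in IR20 and 3 lower, with a median of 0.48. CESA6, a subunit of the enzyme that makes primary wall cellulose, read 12.16, 12.09 and 12.1 in IR20, against 11.03, 10.81 and 10.86 in Dagad deshi. The members with the largest differences lie outside the CESA core, with CSLC2 1.64 higher and CSLE1, given above, and CSLH1 at -4.13 and -1.33. Expansins, which loosen walls during growth, and xyloglucan transferases were higher in 15 of 30 genes and lower in 5. EXPB2 read 11.6, 11.63 and 11.68 in IR20 and 9.19, 8.86 and 8.97 in Dagad deshi, a difference of 2.63 ± 0.0854. XTH8 and EXLA2 were lower in IR20 by 1.51 and 1.43.

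The chlorophyll list divided by role. Of its 19 genes 13 were higher in IR20 and 3 lower, with a median of 1.01. The 13 all act in synthesis. CHLD, a subunit of magnesium chelatase, read 11.34, 11.29 and 11.32 in IR20, against 8.79, 8.69 and 8.64 in Dagad deshi, a difference of 2.61 ± 0.0416 (adjusted p = 1.08e-10), or 6.12-fold. UPD2, a uroporphyrinogen decarboxylase, was 2.65 ± 0.15 higher and CHLG, chlorophyll synthase, 2.27 ± 0.127. PPOX1 and GSA, earlier steps named after their values were seen, were 2.11 and 1.98 higher, with a mean over all probe sets of GSA of 0.99. The 3 that were lower all act in breakdown. RCCR1, the red chlorophyll catabolite reductase, read 10.08, 9.96 and 10.02 in IR20 and 12.65, 12.64 and 12.47 in Dagad deshi, a difference of -2.56 ± 0.0791. NYC1 and SGR, noted for this after their values were seen, were lower by 1.55 and 1.02. At 6 h CHLD was 0.84 higher and RCCR1 lower by 1.04, and SGR differed by 0.11 (adjusted p = 0.239).

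**Figure D3:**
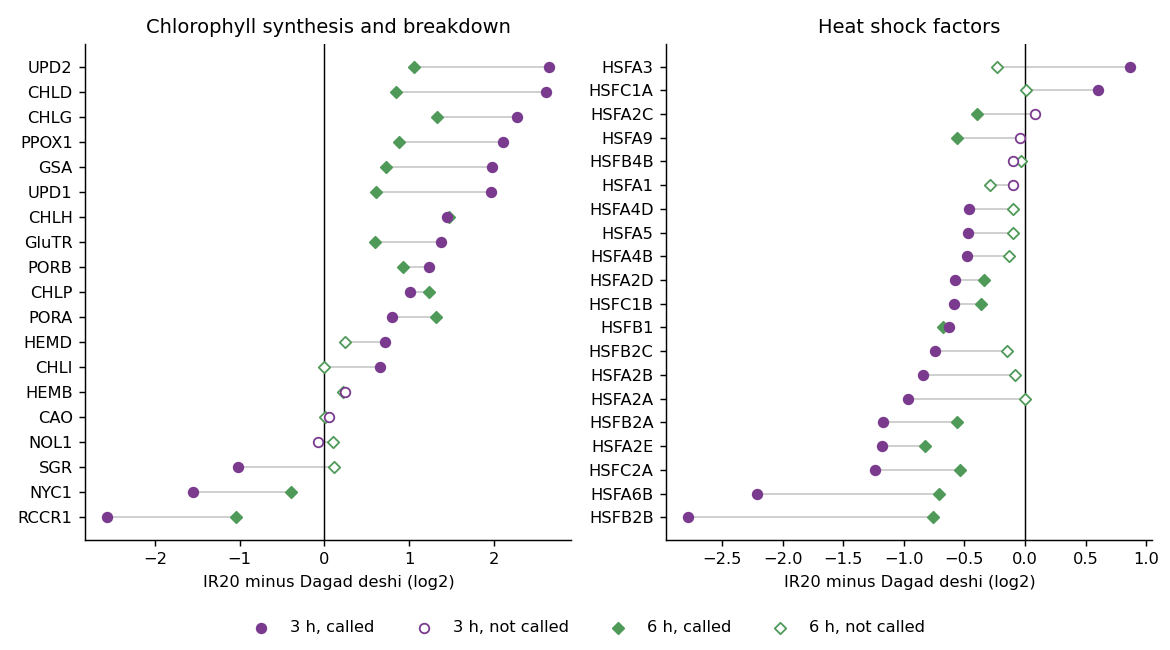
Difference IR20 minus Dagad deshi (log2) for the 19 genes of chlorophyll synthesis and breakdown (left) and the 20 heat shock factors (right), circles at 3 h and diamonds at 6 h of drought, filled where the limma adjusted p was under 0.05. At 3 h UPD2 and CHLD lie furthest to the right at 2.65 and 2.61 and HSFB2B furthest to the left at -2.78; most points lie nearer to 0 at 6 h.

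Of 15 photosynthesis genes 6 were higher and 1 lower at 3 h, with a median of 0.13, and 11 were higher and 1 lower at 6 h, with a median of 0.38. LFNR1, the leaf ferredoxin reductase, was 1.76 ± 0.065 higher, PSB28, a photosystem II protein, 1.77 ± 0.122 and RCAA1, Rubisco activase, 1.19 ± 0.112, while PSAG1 of photosystem I was lower by 1.13 ± 0.179. The mean over all probe sets of PSAG1 was -0.56. The summed intensity of these 15 marker genes of green tissue was 258983 to 264209 in IR20 and 226016 to 233038 in Dagad deshi. The 45 root and metal uptake genes gave 25116 to 26108 in IR20 and 27270 to 28720 in Dagad deshi, with 11 genes higher and 17 lower. Whether a different proportion of shoot to root entered the RNA was not tested.

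Genes of diterpenoid phytoalexins, the antimicrobial momilactones, oryzalexins and phytocassanes of rice, were lower in IR20 in 9 of 16 and higher in 1, with a median of -0.91. CPS4, the cyclase that starts momilactone synthesis, read 7.44, 7.08 and 7.28 in IR20, against 10.55, 10.28 and 10.39 in Dagad deshi. The oxidase CYP99A3 read 8.59, 8.76 and 8.43 in IR20 and 12.38, 12.23 and 12.4 in Dagad deshi, a difference of -3.74 ± 0.0795 (adjusted p = 5.59e-10). In the gene order of RefSeq, CPS4 and CYP99A3 are neighbours, in a group of 5 list members of which 4 were lower. MAS and CYP99A2, named after their values were seen, were at -1.06 and -1.26, and CYP99A2 was not called in the fit on all 18 arrays (adjusted p = 0.0504). The fifth, DTS2, singled out after its values were seen, did not share the difference, with 7.26, 7.29 and 7.09 in IR20 and 7.37, 7.01 and 7.06 in Dagad deshi (adjusted p = 0.905). Of 8 list members in another cluster 4 were lower and 4 were not called. Among the lower, CYP76M5 and CYP71Z7 were lower by 3.17 ± 0.132 and 2.38 ± 0.0725. The list took genes by name, whether or not each acts in phytoalexin synthesis. KS1A was the list member that was higher, by 0.61, and was named after its values were seen. Without IR20 replicate 2 KS1A was not called (adjusted p = 0.0504). At 6 h 11 of the 16 were lower and none was higher.

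Jasmonate, the hormone of wounding and defence, showed members on both sides. The lipoxygenase CM-LOX2 and the allene oxide synthase AOS3 were lower in IR20, at -2.5 ± 0.0762 and -2.03 ± 0.0984, and the allene oxide synthase AOS4 and the lipoxygenase LOX3 higher by 2.12 ± 0.0694 and 1.79 ± 0.132. The mean over all probe sets of CM-LOX2 was -0.85. JAZ8, a repressor of jasmonate response, read 7.88, 8 and 7.76 in IR20, against 10.88, 10.85 and 10.92 in Dagad deshi. Of 19 synthesis genes 8 were higher and 5 lower, and of 13 JAZ repressors 4 were higher and 4 lower. In ethylene the list also had both signs beside ACO1, with EIL1, a transcription factor of the ethylene response, lower by 2.49 ± 0.0862 and ACS2, which makes the ethylene precursor, by 0.83 ± 0.132. In auxin, GH3.2, which conjugates the hormone, was lower by 2.47 ± 0.0749, and IAA1 and the efflux carrier PIN2 were higher by 1.86 and 1.88. Of 59 auxin response genes 20 were higher and 12 lower.

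Plasma membrane aquaporins were lower in IR20 in 6 of 10 genes, and PIP2-7 was the one that was higher. PIP2-7 read 13.54, 13.56 and 13.67 in IR20, against 9.71, 9.8 and 9.93 in Dagad deshi. PIP2-5 read 9.71, 9.75 and 9.73 in IR20, against 12.15, 12.17 and 12.29 in Dagad deshi, and PIP2-4 was lower by 1.2 ± 0.109. At 6 h 3 of the 10 genes were higher and 3 lower, with differences of 3.02 for PIP2-7, -3.44 for PIP2-5 and -2.38 for PIP2-4. TIP3-1, an aquaporin of storage vacuoles, was lower by 3.02 ± 0.0809. Sugar transporters were split, with 6 of 18 higher and 7 lower. Among the lower, SWEET1b read 5.69, 6.04 and 6.01 in IR20 and 9.38, 9.26 and 9.25 in Dagad deshi, and SWEET6a was lower by 2.15. Of 12 ABC transporters 7 were lower and 1 higher at 3 h, and 3 were lower and 5 higher at 6 h. Of 25 silicon and Casparian strip genes, listed by name, 6 were higher and 11 lower, with a median of -0.14. Among the higher, Lsi2, the silicon efflux transporter of roots, was 3.08 ± 0.105 higher. CASP1, a protein of the Casparian strip, was 2.87 ± 0.0912 higher. The mean over all probe sets of CASP1 was 1.41. The phosphate transporters PT2 and PT4 differed in sign, at 3.47 ± 0.0913 and -3.13 ± 0.17, and the potassium transporter HAK16 was lower by 2.37 ± 0.0536.

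**Figure D4:**
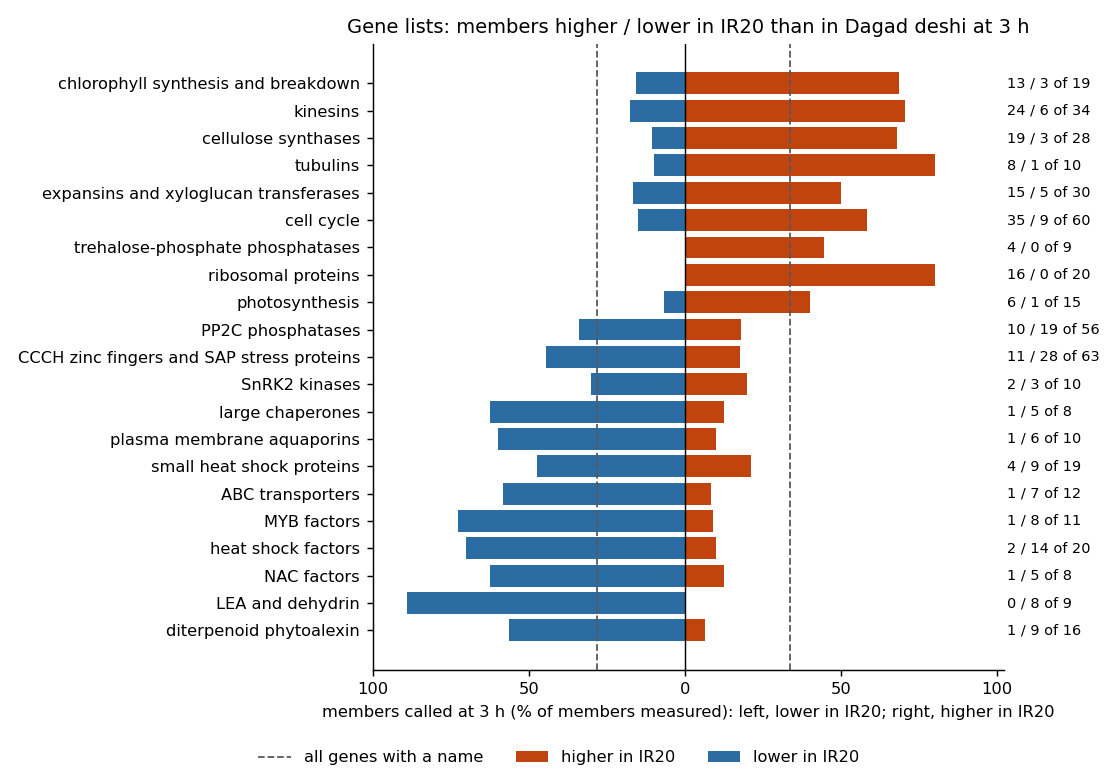
Members called at 3 h, in percent of those measured, in 21 of 59 gene lists, higher (right, orange) or lower (left, blue) in IR20. Lists are ordered by median difference, IR20 minus Dagad deshi, with the counts higher and lower at the right. The 21 were chosen with earlier results of these data known and do not stand for all 59. Among those not drawn, sugar transporters had 6 higher and 7 lower, and germin-like genes 7 higher and 2 lower. Dashed lines mark the shares of all genes with a name, 33.5% higher and 28.3% lower; chlorophyll, division, wall and ribosomal lists reach further to the right, and dehydrin, heat shock factor, MYB and phytoalexin lists further to the left.

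Among starch and sugar genes, AMY1A, an alpha-amylase of germinating grain, read 11.7, 11.63 and 11.84 in IR20, against 6.79, 6.63 and 7.11 in Dagad deshi, a difference of 4.88 ± 0.691 (adjusted p = 0.000314). At 6 h it read 6.07, 6.07 and 5.83 in IR20, against 13.93, 14.04 and 10.81 in Dagad deshi, so the order of the cultivars was opposite and the Dagad deshi arrays differed among themselves. EP3A, a cysteine proteinase of germinating seeds, read 7.05, 7.02 and 6.81 in IR20 and 4.81, 4.9 and 5.12 in Dagad deshi at 3 h, and was lower in IR20 by 4.63 at 6 h. In a fit on all 18 arrays neither was called at 3 h, with adjusted p of 0.0808 for AMY1A and 0.145 for EP3A. The summed intensity of the 15 genes of germinating grain was 3785 to 4236 in IR20 and 744 to 835 in Dagad deshi at 3 h. AMY1A alone made up that gap, since the other 14 genes summed to 589 to 642 in IR20 and 660 to 741 in Dagad deshi. Of the 15 genes 3 were higher and 3 lower, and 11 of the 15 in IR20 and 12 in Dagad deshi had a mean level under 5.

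Of 9 trehalose-phosphate phosphatases, which make the sugar trehalose, 4 were higher in IR20 and none lower. TPP1 read 11.23, 11.22 and 11.25 in IR20 and 10.18, 10.21 and 10.31 in Dagad deshi, and at 6 h it was lower in IR20 by 0.55 (adjusted p = 0.00173). The sucrose synthase SUS4 was lower by 1.45 ± 0.0772 and differed by -0.06 at 6 h. The invertases CIN7 and CIN2 were higher by 1.62 and 1.54, and NIN1 lower by 1.47. P5CS2, an enzyme of proline synthesis, was lower by 0.61 at 3 h and higher by 0.62 at 6 h. Its mean over all probe sets was -0.23, and it was not called at 3 h in the fit on all 18 arrays (adjusted p = 0.124). OAT, ornithine aminotransferase, was lower by 1.39 ± 0.0956 at 3 h.

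Among families often used as internal controls in qRT-PCR, 9 of 14 genes were called at 3 h, or 64.3%, close to the 61.9% of all genes with a name. Of 4 actin genes 2 were higher in IR20, ACT1 by 0.69 ± 0.136 and ACT2 by 0.57 ± 0.0694. Of 6 ubiquitin genes 4 were higher and 1 lower, with UBQ2 at 0.73 ± 0.0538 and UBQ4 at -0.58 ± 0.0794. UBQ4 was not called in the fit on all 18 arrays (adjusted p = 0.159). GAPC1, a glyceraldehyde-3-phosphate dehydrogenase, was lower by 0.57 ± 0.041, 1 of 3 genes of its family, and the cyclophilin Cyp3 by 0.81 ± 0.0724. The mean over all probe sets of Cyp3 was -0.4. At 6 h ACT2 and GAPC1 differed by 0.11 and -0.08, neither of them called.

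The cultivars also differed at 6 h, on other arrays. There 10738 probe sets, or 18.8%, were called, 5141 (8.98%) higher and 5597 (9.78%) lower in IR20, and 2212 (3.86%) by at least 1 log2 unit. Whether more probe sets were called at 3 h or at 6 h depended on the scaling, since centring each array on its median called 15927 at 3 h and 25899 at 6 h. Of the probe sets called higher at 3 h, 3754 were called higher at 6 h, which is 45.3% of the list at 3 h and 73% of the list at 6 h. Of those called lower at 3 h, 3923 were called lower at 6 h, or 54% and 70.1%. Over all 57258 probe sets the differences at both times had a Pearson correlation of 0.767, given as a description because probe sets are not independent. The difference between the times was called for 7733 probe sets, or 13.5%, of which 4127 (7.21%) were positive and 3606 (6.3%) negative. Of the 4448 probe sets that differed by at least 1 log2 unit at 3 h, 2806 were called for it, and in 2657 of these it ran toward the side seen at 3 h. A choice by size at 3 h favours that side. Of the 2212 probe sets chosen in the same way at 6 h, 942 were called for the change, and in 482 of these it ran toward the side seen at 6 h.

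**Figure D5:**
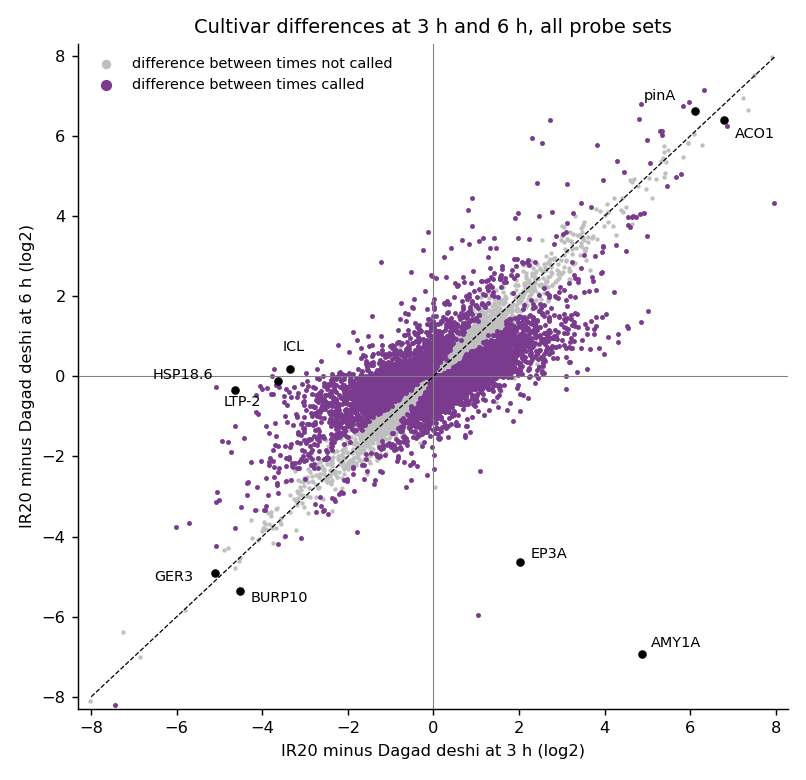
Difference IR20 minus Dagad deshi (log2) at 3 h (horizontal) against 6 h (vertical) for all 57258 probe sets, purple where the difference between times had an adjusted p under 0.05. The dashed line marks equal differences; ACO1, pinA, GER3 and BURP10 lie near it, HSP18.6, LTP-2 and ICL near 0 at 6 h, and AMY1A and EP3A change sign.

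ACO1, GER3 and LPR1 are examples of differences that held, with changes between times of 0.39, -0.17 and 0.13, none of them called. The largest changes among genes with a name were those of AMY1A at 11.82 ± 0.977, EP3A at 6.65 ± 0.535, HSP18.6 at -4.29 ± 0.159, ICL at -3.55 ± 0.159 and LTP-2 at -3.51 ± 0.113. The list of chlorophyll genes had a median of 1.01 at 3 h and 0.61 at 6 h, and that of cell cycle genes 0.38 and 0.06. In the cell cycle list 19 of 60 genes were called for a change between times, all toward a higher IR20 level at 3 h. Diterpenoid phytoalexin genes had medians of -0.91 and -0.88.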

How the data were processed

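Whole-seedling RNA was hybridized to Affymetrix rice arrays, 18 in all, of which the 12 of drought-stressed seedlings entered the fit. The deposited values are 1 linear intensity per probe set and array. The submitters' processing notes name GCOS. Its version, the summarization and any normalization between arrays are not given in the sources used here. Of 57381 probe sets, 123 controls were left out and 57258 tested as log2(intensity + 16) with limma 3.58.1 in R 4.3.3. The fit had 4 group means and an eBayes trend, with Benjamini-Hochberg adjustment over all probe sets. The 3 h and 6 h comparisons share no array. The scripts were tested on simulated data.

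Probe sets were named through the platform annotation and RefSeq (ASM3414082v1 assembly): 22436 carried 1 gene, 95 several and 34727 none. A gene was read from its probe set of highest mean. Genes were named as the 12 largest differences in each direction, up to 4 called members per list, the 5 largest changes between times and up to 4 genes known by number. Members and lists were chosen with earlier results of these data known. The number of arrays limits the precision, and p-values measure the spread between arrays labelled as biological replicates. Levels of different probe sets were not compared. Alternatives covered normalization, pseudocount, filter, variance prior, replicate block, samples fitted, probe sets, the 3'/5' index and single arrays left out. Those on list counts other than the call rule, and the index and spike-in values with an array left out, were added after seeing the data.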

Additional observations from a re-analysis of the deposited data

Results flagged for a closer look

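Of the 140 genes named, 106 had a difference between IR20 and Dagad deshi at 3 h that differed from the one at 6 h in a limma test of that change, the largest adjusted p being 0.0497. The values are the log2 difference at 3 h minus that at 6 h, and in 17 genes the difference had the opposite sign at 6 h. Most of the genes were named for their difference at 3 h, and AMY1A, EP3A, HSP18.6, ICL and LTP-2 also for the size of the change itself. Such choices favour genes that pass the test. Neither the share that passed nor a balance between the times is therefore read from them. The same test was passed by 36.2% of all genes with a name. Genes of grain and sugars were AMY1A at 11.82, EP3A at 6.65, ICL at -3.55, TPP1 at 1.56, SUS4 at -1.39, NIN1 at -0.91, CIN2 at 0.68, P5CS2 at -1.23 and OAT at -0.82. Dehydrins and other stress proteins were RAB16D at -2.99, rab25 at -1.73, PM19L1 at -1.26, RAB16C at -1.02, LEA19 at -0.72, Emp1 at -0.88, RAB21 at -0.53, RAB16B at -0.42, HSP18.6 at -4.29, HSP17.9A at -2.24, HSP17.4 at -1.01, HSP16.9A at -1.0, HSP18.1 at -0.71, CLPB1 at -1.8, CLPB3 at -0.98, R1C-Prx at -3.35 and LTP-2 at -3.51.

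Kinases, phosphatases and ABA breakdown gave SAPK9 at 1.85, SAPK1 at -1.23, SAPK2 at 0.84, PP2C51 at -2.23, PP2C59 at -1.07 and ABA8OX1 at -0.77. Transcription factors gave HSFB2B at -2.02, HSFA6B at -1.5, HSFA3 at 1.1, HSFC2A at -0.7, HSFA2E at -0.35, C3H60 at -2.62, PCL1 at 2.85, DREB1G at 1.15, DREB2A at -0.59, Hox22 at -0.78, WRKY51 at -0.78, WRKY62 at -0.56, MYB45 at -0.53, NAC048 at -0.34 and IAA1 at -0.22. Chlorophyll and photosynthesis genes gave CHLD at 1.78, UPD2 at 1.59, RCCR1 at -1.52, GSA at 1.26, PPOX1 at 1.23, NYC1 at -1.17, SGR at -1.13, CHLG at 0.94, PSB28 at 0.87 and LFNR1 at 0.76.

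Genes of division, translation and cell walls gave MCM7 at 0.92, MCM4 at 0.91, MCM5 at 0.76, MCM2 at 0.75, MCM6 at 0.65, MCM3 at 0.63, KIN10A at 0.82, CYCB1-1 at 0.65, KIN12C at 0.49, RPL18 at 0.53, CSLE1 at -1.37, CSLH1 at -1.16, CESA6 at 0.61, EXLA2 at -0.98, LAC24 at -2.13, GLU6 at 2.47 and GLU15 at 0.72. Genes of phytoalexins, jasmonate and auxin gave CYP99A3 at -1.91, CYP71Z7 at -1.64, DTS2 at 1.36, CPS4 at -0.86, CYP99A2 at -0.35, AOS3 at -1.49, LOX3 at 0.9, CM-LOX2 at -0.48, JAZ8 at -0.45, GH3.2 at -0.43 and PIN2 at 0.78. Transport and barrier genes gave PT2 at 2.56, HAK16 at -1.67, TIP3-1 at -1.43, SWEET1b at -1.37, SWEET6a at -1.11, PIP2-4 at 1.17, PIP2-5 at 0.96, PIP2-7 at 0.76 and CASP1 at -0.63. The internal control families gave Cyp3 at -0.54, GAPC1 at -0.48, ACT2 at 0.47 and UBQ2 at 0.34. The remaining genes were BBD1 at 2.98, GLP2 at 1.49, PRX74 at -0.92, BURP10 at 0.84, BURP2 at 0.66, LOC4329797 at 3.62, LOC4324307 at -2.26 and LOC4341070 at -2.05.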

How the results depend on the processing

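The 3 h comparison kept its count within 1.5 times under every alternative run, with 13921 to 14383 probe sets called when 1 array was left out (7271 to 7953 higher, 6430 to 6949 lower). At 6 h the range was 9342 to 10649 and for the change between times 6406 to 7755. Centring each array on its median called 25899 at 6 h, 20088 of them lower, so that 22.4% of calls were higher, against 47.9% before, while the median difference was -0.006. The fit on all 18 arrays called 5060 for the change between times, 2237 of them lower. The causes were not tested.

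With a difference of at least 1 log2 unit also required, 240 of the 1133 list genes were called. By that rule 215 of all 2445 genes with a name were higher and 202 lower, the share to read the next counts against. The counts lower in IR20 were then 3 of 9 for LEA, 4 of 56 for PP2C and 5 of 20 for heat shock factors. Large chaperones had 2 of 8 lower, MYB 2 of 11, NAC 2 of 8 and CCCH and SAP 5 of 63. Plasma membrane aquaporins had 2 of 10 lower and ABC transporters 1 of 12. The counts higher were 14 of 60 for cell cycle, 8 of 34 for kinesins and 1 of 10 for tubulins. Cellulose synthases had 3 of 28 higher, expansins and xyloglucan transferases 7 of 30 and ribosomal proteins 2 of 20. Photosynthesis had 3 of 15 higher and trehalose-phosphate phosphatases 2 of 9. With 1 array left out, 663 to 688 list genes were called, the index difference was 0.84 to 1.01 and those of dap, lys and phe 1.37 to 1.67, 0.95 to 1.25 and 0.69 to 0.91.

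At 3 h the replicate numbers did not pair the samples, with correlations of 0.029, -0.13 and -0.023, and 1 of 3 IR20 arrays matched its own number best. At 6 h the correlations of replicates 1, 2 and 3 were -0.455, -0.551 and 0.319. With the replicate block 15275, 10387 and 7289 probe sets were called at 3 h, at 6 h and for the change between times.

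Of 2388 values of the 140 named genes, 2355 kept direction and call, 13 lost the call and 3 changed sign. The 3 belonged to genes not called, DTS2 at -0.03 and LIP9 at 0.03 after quantile normalization, and DTS2 at -0.00 to 0.18 with 1 array left out. The other 17 were means over all probe sets of a gene, several of which include probe sets near the lowest value possible.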
